A study of Sus scrofa with 8 samples.

Results

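Amino acid and sugar transporter genes were taken as the mRNAs whose pig gene symbol starts with SLC1A, SLC2A, SLC3A, SLC5A, SLC6A, SLC7A, SLC36A, SLC38A or SLC43A. This rule, which uses no measured value, found 65 of the 21607 mRNA identifiers, and only 11654 of the identifiers carry a symbol. The SLC6A family has 15 of these genes, the SLC7A family 11, the SLC2A, SLC5A and SLC38A families 9 each, the SLC1A family 7, the SLC3A and SLC36A families 2 each and the SLC43A family 1. Of 44 well-known transporters chosen for naming, 32 were found. SLC2A1, SLC2A3, SLC2A5, SLC2A9, SLC5A3, SLC6A9, SLC7A5, SLC7A6, SLC36A1, SLC38A7, SLC43A1 and SLC43A3 could not be matched by symbol and are not analysed here.

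The livers came from healthy sows of the Yanan breed, which is native to China, with 2 young sows aged 180 days (young livers, YL1 and YL2) and 2 old sows aged 8 years (old livers, OL1 and OL2). The sows were unrelated, had no treatment or genetic change, were fasted overnight before slaughter, and each gave 1 rRNA-depleted RNA-seq library of whole liver tissue. Per the paper, the young sows had not yet given birth. The old sows had given birth over many years and were culled once their production had declined. Parity and culling thus cannot be told apart from age here. The recovered reads on mRNAs numbered 37555696 in YL1, 37125093 in YL2, 22482241 in OL1 and 24866406 in OL2, so the old libraries were the shallower ones. Expression is given as CPM, reads scaled to the total of a library with no correction for gene length, so the level of one gene cannot be set against that of another.

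Hepatocytes take up amino acids from portal blood for protein synthesis, urea formation and gluconeogenesis, and move glucose in both directions across the sinusoidal membrane. The SLC2A family holds the facilitative sugar carriers (GLUT proteins), whereas SLC5A carriers couple sugars, vitamins or other solutes to sodium. Acidic and neutral amino acids are carried by SLC1A proteins, osmolytes and neurotransmitters by SLC6A proteins, and small neutral amino acids by SLC38A proteins. The SLC7A carriers mostly work as light chains bound to a heavy chain of the SLC3A family, and the SLC7A cationic carriers work alone. SLC43A2 facilitates the passage of branched-chain and other large neutral amino acids.

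Tissue identity and the state of each library were checked before the comparison. All 12 matched hepatocyte markers were above 0 in every library, with a summed level of 50316 CPM in YL1, 58716 in YL2, 35258 in OL1 and 43685 in OL2, and ALB was the largest part of each sum. Of the 12, ALB, APOB and CPS1 were below both young livers in both old livers, compared with 25% of all tested mRNAs, none was above, and 9 overlapped. Of the 5 macrophage markers 4 were above both young livers in both old livers, compared with 24.4% of all tested mRNAs, with summed levels of 232 and 254 CPM in YL and 340 and 375 in OL, and none was at 0 in any library. Among tested mRNAs with a mean of at least 1 CPM, which all hepatocyte and macrophage markers reached, 3218 of 9790 were below and 1745 above. Of the 8 T and NK cell identifiers, 6 were above and 1 below, compared with 24.4% and 25% of all tested mRNAs. Their summed levels were 10.5 and 12.5 CPM in YL and 21.4 and 14.2 in OL. GZMA has 2 identifiers, of which the abundant one was the one below, while the other was at 0 in both young livers and entered the count only through its old values. Of 27 interferon-stimulated genes, all had their highest value in OL1, where their median of log2(CPM + 1) was 5.56, compared with 1.71 in YL1, 2.17 in YL2 and 1.68 in OL2. The part of these differences in the values below was not tested, and in whole tissue a smaller share of a cell type and less RNA per cell cannot be told apart.

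None of the transporters met the threshold of an adjusted p-value under 0.05 together with an absolute log2 difference over 1 between OL and YL (limma with Benjamini-Hochberg adjustment over 16898 mRNAs, smallest adjusted p = 0.216). No mRNA at all passed (0% of those tested). With an unadjusted p-value under 0.05, 2 of the 50 tested transporters were higher in OL, SLC43A2 and SLC1A1, compared with 6.78% of all tested mRNAs, and 3 were lower, SLC6A13, SLC38A4 and SLC38A9, compared with 8.93%. These counts are 4% and 6% of the 50 and so no larger than the background. With TMM scaling or DESeq2 size factors they were 4 higher and 2 lower, and without YL1 also 4 and 2. Without YL2 they were 1 and 2, without OL1 they were 4 and 4, and without OL2 they were 2 and 4. The exact test of edgeR called none of the 50, compared with 2.7% of all mRNAs called higher and 0.456% called lower. It put 2 transporters higher and 1 lower when p was left unadjusted at 0.05, compared with 10.3% and 2.7% of all mRNAs. Its quasi-likelihood test also called none (0% of all mRNAs), and put 3 higher and 2 lower by the unadjusted p, compared with 11.6% and 3.08%. Among those 3 was SLC7A4, which had reads in old livers only and was tested through them. On simulated counts at the dispersion edgeR estimated for these libraries, a log2 fold of 3 was given to 200 of 16761 genes. The 200 were drawn from genes with an expected count above 50 reads, and all genes shared 1 dispersion. Of the 200, limma recovered 0% and the exact test 5%. At an assumed lower dispersion of 0.05 limma recovered 72.5% and the exact test 100%, so what could be detected turns on how much a gene varies between livers. Recovery for transporters with fewer reads was not simulated.

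The 65 genes were divided here by their level. A mean of at least 1 CPM over the 4 libraries was reached by 23, a further 27 were tested at a lower mean, and 15 were above 0 in fewer than 2 libraries and were not tested. Of those 15, SLC2A7, SLC5A2 (the renal sodium-glucose carrier SGLT2), SLC5A5 (the iodide carrier), SLC5A7 (the choline carrier of neurons), SLC6A15, SLC6A18 and SLC7A14 were listed at 0 in all libraries. In all, 18 genes had 3 reads or fewer in every library, which is a level of 0.0327 CPM in YL1, 0.0347 in YL2, 0.0487 in OL1 and 0.0418 in OL2. Among them were the monoamine carriers SLC6A2 and SLC6A3 with a single read in OL2 each and SLC6A19, a kidney and intestine carrier of neutral amino acids, with a single read in OL1.

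**Figure D1:**
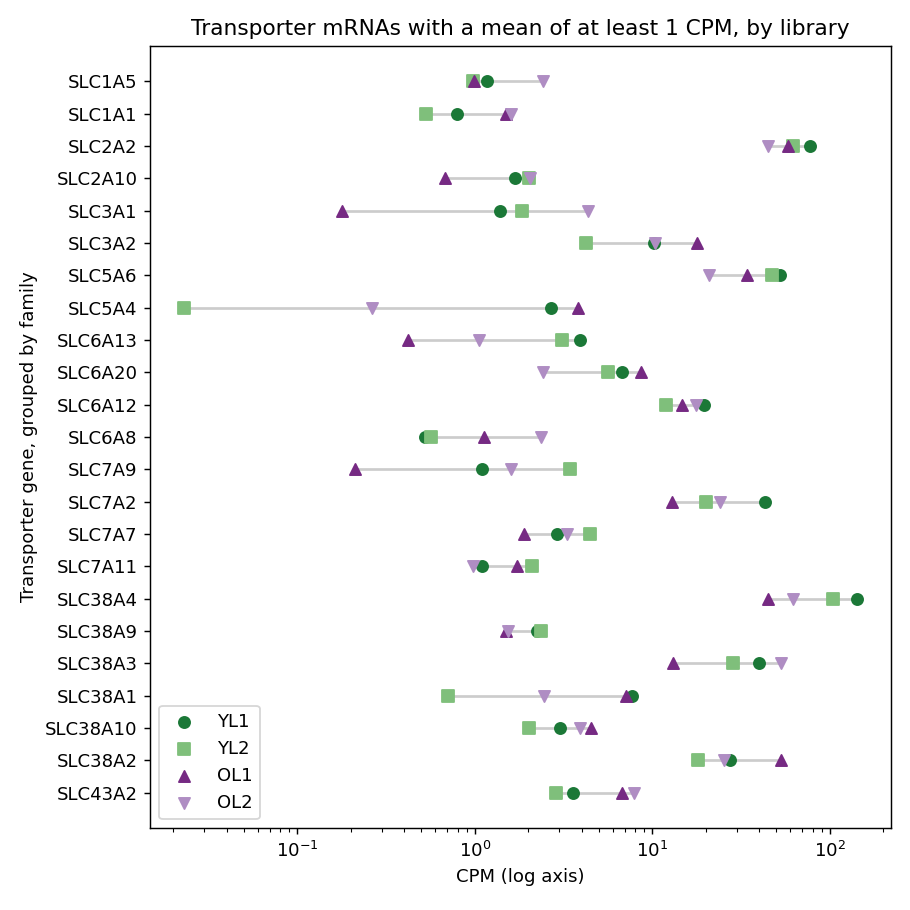
Level of the 23 transporter mRNAs with a mean of at least 1 CPM in each library (log axis), with circles and squares for young livers, triangles for old livers and a grey line over the range. SLC38A4, SLC5A6 and SLC2A2 are below both young livers in both old livers, SLC43A2 is above them, and SLC5A4, SLC3A1 and SLC38A1 spread widely within an age.

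Of the sugar carriers, SLC2A2 (GLUT2, ENSSSCG00000020927) is the main sinusoidal glucose carrier of hepatocytes and the marker of this gene set. It had 76.9 and 62.2 CPM in YL1 and YL2 and 58.1 and 45.0 in OL1 and OL2, on 3231 to 7067 reads per library. Both old livers were thus below both young livers, and the mean was 0.741 times that of the young livers. This order depends on the scaling. TMM scaling divides YL2 by 1.048 and OL1 by 0.932, and DESeq2 size factors by 1.030 and 0.942. Either one puts OL1 above YL2, so that the ages overlap. The edgeR exact test gave a log2 fold change of -0.23 (unadjusted p = 0.663). On log2(CPM + 1) the difference was -0.43 (standard error 0.21, 95% interval -1.08 to 0.22, adjusted p = 0.450 in limma). The step between the age groups, from 62.2 to 58.1 CPM, was smaller than the gap between the 2 livers of either age. SLC2A2 held between 90.8% and 95.1% of the reads of its family in each library.

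The other SLC2A genes had low values. SLC2A8, a GLUT protein of intracellular membranes, had 0.338 and 0.335 CPM in YL and 1.17 and 0.626 in OL, with no overlap (log2 difference 0.49, standard error 0.19, adjusted p = 0.374 in limma). SLC2A10 had 1.69, 2.01, 0.682 and 2.06 CPM in YL1, YL2, OL1 and OL2, where OL1 alone was low. SLC2A4, the insulin-responsive carrier of muscle and fat, had 7 and 0 reads in YL and 13 and 23 in OL. SLC2A6, SLC2A11, SLC2A12 and SLC2A13 (the proton-coupled myo-inositol carrier) overlapped between ages, with log2 differences from -0.076 to 0.22.

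Sodium-coupled SLC5A carriers were led by SLC5A6 (ENSSSCG00000008550), which carries biotin, pantothenate and lipoate. It had 52.2 and 47.5 CPM in YL and 34.3 and 20.8 in OL. Both old livers were below both young livers, at a mean of 0.552 times the young level (log2 difference -0.87, standard error 0.30, 95% interval -1.78 to 0.03, adjusted p = 0.328 in limma). SLC5A6 held 86.3% to 99.3% of the reads of its family.

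Among the SLC5A sugar carriers proper, SLC5A1 (SGLT1) had 18 and 0 reads in YL and 14 and 31 in OL. SLC5A9, a carrier of mannose and other sugars, had 1.15 and 0.208 CPM in YL and 1.35 and 1.24 in OL, where YL2 alone was low. SLC5A4 (SGLT3) had 2.69 CPM in YL1 and 3.83 in OL1 but 0.023 in YL2 and 0.265 in OL2. The division of SLC5A4 therefore ran across the ages, and its difference between the livers of 1 age, 1.85 and 1.93 on the log2 scale, was far above the 0.35 between ages. SLC5A1 and SLC5A4 lie side by side in the pig gene order of Sscrofa11.1 and are related in sequence, so the split of reads between them is uncertain. The monocarboxylate carrier SLC5A12 had 14 and 10 reads in YL and 1 and 3 in OL, and its relative SLC5A8 had a single read in OL2.

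The SLC38A family, the sodium-coupled carriers of glutamine and other small neutral amino acids, held the most reads of the 9 families in every library. SLC38A4 (SNAT4, ENSSSCG00000026597), a system A carrier found mainly in liver, had 142 and 104 CPM in YL and 45.0 and 61.8 in OL. The groups did not overlap, and the old mean was 0.435 times the young mean (log2 difference -1.19, standard error 0.27, 95% interval -2.01 to -0.37, adjusted p = 0.249 in limma). With 1 library left out the difference lay between -1.41 and -0.96, and its unadjusted p-value was under 0.05 in 1 of 4 such fits and in 9 of all 13 alternatives, the highest being 0.107 in limma without OL1.

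SLC38A2 (SNAT2), the ubiquitous system A carrier that responds to amino acid shortage, had 27.5 and 18.0 CPM in YL and 53.3 and 25.3 in OL. Only OL1 was above both young livers, and the log2 difference of 0.70 (standard error 0.48, adjusted p = 0.575 in limma) was 0.18 without OL1. SLC38A3 (SNAT3), the system N glutamine carrier of hepatocytes, had 40.0, 28.6, 13.2 and 52.7 CPM in YL1, YL2, OL1 and OL2. The old livers held both its lowest and its highest value, so that the log2 difference of -0.34 became 0.62 without OL1 and was 0.15 by the edgeR exact test. Each of the 2 old livers thus had a high level of 1 of these carriers, SLC38A2 in OL1 and SLC38A3 in OL2.

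SLC38A1 (SNAT1) had 7.67 CPM in YL1, 0.705 in YL2, 7.07 in OL1 and 2.46 in OL2. As for SLC5A4, YL2 and OL2 were the low libraries and the difference between the 2 young livers, 2.35 on the log2 scale, exceeded the 0.46 between ages. SLC38A9, the lysosomal arginine sensor that signals to mTORC1, differed little within an age, with 2.24 and 2.36 CPM in YL and 1.50 and 1.53 in OL (log2 difference -0.39, standard error 0.11, adjusted p = 0.277 in limma). With 1 library left out it lay between -0.42 and -0.37. On recovered reads the edgeR exact test gave it an unadjusted p-value of 0.519, and that value was under 0.05 in 3 of 13 alternatives. SLC38A10 had 3.005 and 2.01 CPM in YL and 4.53 and 3.90 in OL, with no overlap (log2 difference 0.58, standard error 0.21, adjusted p = 0.338 in limma). Of the rest, SLC38A6 was above the young livers on 21 to 39 reads per library, and SLC38A5 and SLC38A11 had at most 9 reads.

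In the gene order of Sscrofa11.1, SLC38A2 and SLC38A4 are neighbours, and SLC38A1 is separated from SLC38A2 by 1 gene. The pair was not shifted alike, and this comparison was chosen after its values were seen. SLC38A2 had 0.194 reads for each read of SLC38A4 in YL1 and 0.174 in YL2, compared with 1.18 in OL1 and 0.410 in OL2. A ratio within a library does not depend on its scaling, and the mean of the old livers was 4.33 times that of the young livers. It rests largely on OL1, since without OL1 it was 2.23 times and without OL2 6.43 times. With 2 libraries in each group, the smallest 2-sided p-value of an exact permutation test is 0.333, so no test of these ratios was made.

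Of the SLC6A family, SLC6A13 (GAT2, ENSSSCG00000030076) carries GABA and taurine and is known from hepatocytes. It had 3.90 and 3.12 CPM in YL on 358 and 270 reads, and 0.422 and 1.06 in OL on 26 and 76 reads. Both old livers were well below the young livers, at 0.211 times their mean, and the log2 difference of -1.39 was the furthest below 0 of the 50 tested transporters (standard error 0.25, 95% interval -2.17 to -0.62, adjusted p = 0.228 in limma). It lay between -1.66 and -1.13 with 1 library left out, and its unadjusted p-value was under 0.05 in 12 of 13 alternatives, the exception being 0.0545 in limma without YL1. The exact test of edgeR gave a log2 fold change of -2.04 with an adjusted p-value of 0.154.

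The adjacent gene SLC6A12 (BGT1), a betaine and GABA carrier of hepatocytes, had 19.5 and 12.0 CPM in YL and 14.6 and 17.7 in OL. Its ages overlapped (log2 difference 0.069, standard error 0.30, 95% interval -0.83 to 0.97). SLC6A13 had 0.200 and 0.261 reads for each read of SLC6A12 in YL, compared with 0.0289 and 0.0599 in OL, again a pair chosen after its values were seen. SLC6A8, the creatine carrier, stood the other way, with 0.523 and 0.566 CPM in YL and 1.12 and 2.35 in OL (log2 difference 0.79, standard error 0.28, adjusted p = 0.341 in limma). SLC6A20, which carries proline and other imino acids, had 6.72, 5.63, 8.60 and 2.42 CPM in YL1, YL2, OL1 and OL2, so that the old livers lay on either side of the young ones. The taurine carrier SLC6A6 had at most 26 reads in a library. The remaining genes of the family, among them the neuronal carriers SLC6A4, SLC6A7 and SLC6A17, had at most 5 reads in any library.

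**Figure D2:**
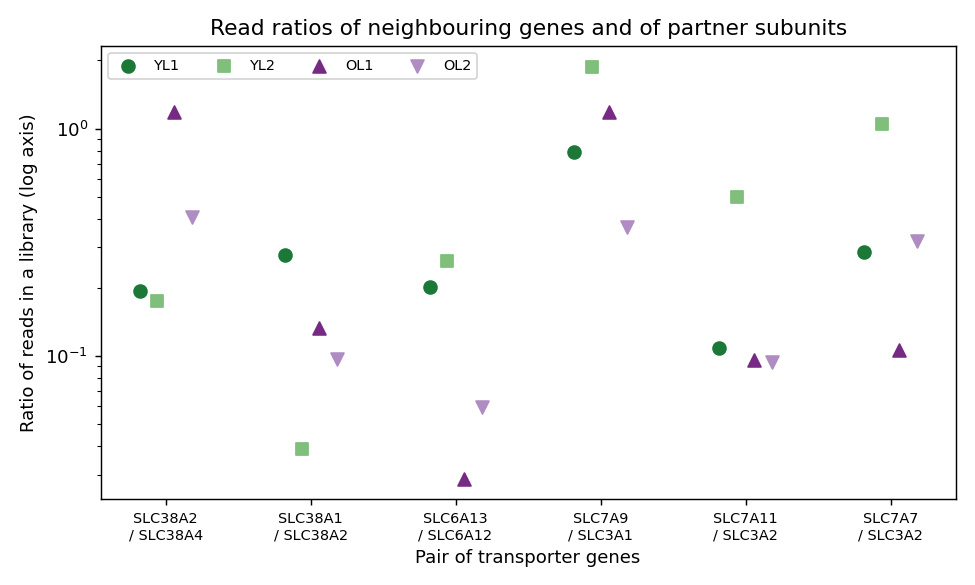
Ratio of reads of 2 transporter genes within each library (log axis) for 3 pairs of nearby genes and 3 pairs of a light and a heavy chain. The ratio of SLC38A2 to SLC38A4 is above both young livers in both old livers, that of SLC6A13 to SLC6A12 is below them, and YL2 is the highest library in the pairs of SLC7A11 and SLC7A7 with SLC3A2.

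Glutamate and neutral amino acid carriers of the SLC1A family had low values throughout. SLC1A1 (EAAT3), a high-affinity glutamate carrier, had 0.795 and 0.531 CPM in YL and 1.50 and 1.60 in OL on 46 to 115 reads, a mean 2.33 times higher in OL (log2 difference 0.62, standard error 0.14, 95% interval 0.19 to 1.05, adjusted p = 0.250 in limma). Its unadjusted p-value was under 0.05 in 6 of 13 alternatives and in 1 of the 4 fits with a library left out, the highest being 0.0897 in limma without OL2. SLC1A4 (ASCT1), which exchanges alanine, serine and cysteine, had 0.686 and 1.11 CPM in YL and 0.390 and 0.334 in OL. Neither gene overlapped between the ages, and they stood in opposite directions. SLC1A2 (EAAT2), the glutamate carrier of perivenous hepatocytes, had 1.07, 0.300, 0.536 and 0.654 CPM in YL1, YL2, OL1 and OL2 and overlapped. The glutamine exchanger SLC1A5 (ASCT2) was at 1.17 and 0.982 CPM in YL and 0.991 and 2.41 in OL, with OL2 alone high. SLC1A3 had 53 reads in YL2 and at most 3 in the others, and SLC1A6 and SLC1A7 had at most 10 reads.

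Cationic amino acids enter hepatocytes mainly by SLC7A2 (CAT2, ENSSSCG00000006987), which had 43.2 and 20.2 CPM in YL and 13.0 and 24.0 in OL. OL1 was the lowest library, but OL2 lay between the young livers, and the log2 difference was -0.71 (standard error 0.54, 95% interval -2.35 to 0.94, adjusted p = 0.612 in limma). SLC7A1, the cationic carrier of most other cells, had 2 to 8 reads. SLC7A2 held 65.9% to 88.4% of the reads of its family.

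SLC3A2 (4F2hc), the heavy chain that brings several SLC7A light chains to the plasma membrane, had 10.2 and 4.22 CPM in YL and 17.9 and 10.4 in OL. The ages did not overlap, although YL1 and OL2 were nearly equal (log2 difference 0.94, standard error 0.53, 95% interval -0.67 to 2.54, adjusted p = 0.497 in limma). Of the light chains that could be matched, SLC7A7 (y+LAT1), which releases cationic amino acids, had 2.91 and 4.44 CPM in YL and 1.90 and 3.31 in OL, and SLC7A11 (xCT), the cystine-glutamate exchanger, had 1.10 and 2.11 in YL and 1.72 and 0.974 in OL. Both overlapped between the ages. The light chain SLC7A8 (LAT2) had 5 to 41 reads, and SLC7A10 had 17 and 9 reads in YL and 4 in each old liver.

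The other heavy chain, SLC3A1 (rBAT), pairs with SLC7A9 to take up cystine and dibasic amino acids. SLC3A1 had 1.39, 1.84, 0.179 and 4.32 CPM in YL1, YL2, OL1 and OL2, and SLC7A9 had 1.10, 3.44, 0.211 and 1.60. Both subunits had their lowest value in OL1, on 11 and 13 reads. The log2 difference of SLC3A1 was -0.058 with all libraries, 1.03 without OL1 and -1.14 without OL2, so its old livers give no common direction. For SLC7A9 it was -0.78 (standard error 0.61, adjusted p = 0.621 in limma). SLC7A3, SLC7A4 and SLC7A13 had at most 4 reads.

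SLC43A2 (LAT4, ENSSSCG00000024108) had 3.57 and 2.87 CPM in YL and 6.78 and 7.88 in OL, on 248 to 566 reads per library. Both old livers were above both young livers, and the mean was 2.28 times higher. It had the smallest p-value of the transporters, with a log2 difference of 0.98 (standard error 0.16, 95% interval 0.49 to 1.47, adjusted p = 0.216 in limma). With 1 library left out it lay between 0.86 and 1.10, and its unadjusted p-value was under 0.05 in 12 of 13 alternatives, the exception being 0.0504 in limma without OL2. The exact test of edgeR gave 1.39 with an adjusted p-value of 0.183. In the SLC36A family of proton-coupled carriers, SLC36A4 had 63 and 8 reads in YL and 12 and 7 in OL, and SLC36A2 was listed at 0 in 3 libraries and had 28 reads in OL1.

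**Figure D3:**
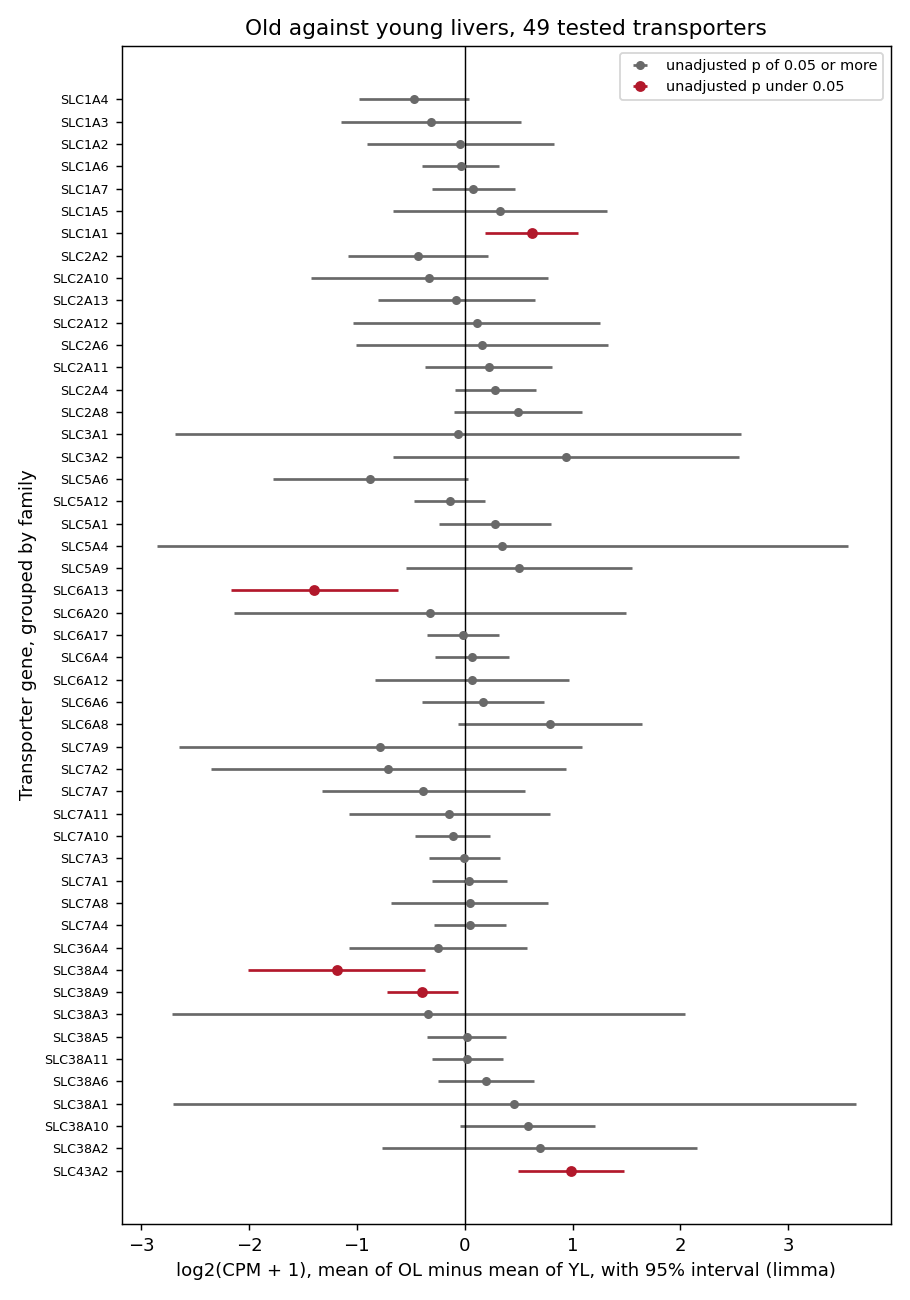
Difference of log2(CPM + 1) between the mean of the old and the mean of the young livers for 49 of the 50 tested transporters, with 95% intervals from limma. The intervals of the 5 genes in red, SLC1A1, SLC43A2, SLC6A13, SLC38A4 and SLC38A9, leave out 0, and no gene passed the adjusted threshold.

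Taken family by family, the medians of the log2 difference were -0.037 for the 7 tested SLC1A genes, 0.14 for 8 SLC2A genes, 0.44 for 2 SLC3A genes, 0.28 for 5 SLC5A genes, 0.026 for 8 SLC6A genes, -0.11 for 9 SLC7A genes and 0.025 for 9 SLC38A genes. The SLC36A and SLC43A families had 1 tested gene each, at -0.25 and 0.98. The medians of SLC1A, SLC7A and SLC38A are the values of SLC1A6, SLC7A10 and SLC38A11, with at most 8, 17 and 3 reads in a library. That of SLC6A lies between genes with at most 5 reads. In these families the median thus describes genes of few reads rather than the expressed members. Several of the family medians changed sign, or in SLC3A came close to 0, with 1 library left out. Without YL1 they were 0.16 for SLC1A, -0.0091 for SLC6A and 0.068 for SLC36A, and without YL2 they were 0.0072 for SLC1A, -0.074 for SLC2A, -0.16 for SLC5A and -0.049 for SLC38A. Without OL1 they were 0.013 for SLC1A and -0.12 for SLC5A, and without OL2 that of SLC3A was 0.080. The median was 0.022 over the 50 tested transporters and -0.023 over all 16898 tested mRNAs, and it was -0.14 over the 23 transporters with a mean of at least 1 CPM and -0.15 over all mRNAs at that mean. Of the 50, 26 were above and 24 below 0, compared with 47.1% above and 52.9% below 0 over all tested mRNAs. The groups did not overlap for 12 transporters that were higher in both old livers and for 8 that were lower, compared with 24.4% and 25% of all tested mRNAs. SLC6A4 and SLC7A4 were tested only through their reads in old livers, so they had to be among the 12.

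The summed level of the transporters was 459 CPM in YL1, 334 in YL2, 299 in OL1 and 303 in OL2. Both old livers were below both young livers, but the 2 young livers were further apart than YL2 and either old liver. This order depends on the scaling. TMM scaling divides YL2 by 1.048, OL1 by 0.932 and OL2 by 0.933, which puts both old sums above that of YL2. With DESeq2 size factors both old sums stay below it. SLC38A4, SLC2A2, SLC5A6, SLC38A3, SLC7A2, SLC38A2 and SLC6A12 together held 87.4% of the transporter reads in YL1, 87.4% in YL2, 77.5% in OL1 and 81.6% in OL2. Of these 7 genes, which were picked for their reads, SLC38A4, SLC2A2 and SLC5A6 were below both young livers in both old livers and the other 4 overlapped. Among all tested mRNAs with a mean of at least 1 CPM, 3218 of 9790 were below and 1745 above.

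The spread between livers of the same age was set beside the difference between ages. Over the 23 transporters with a mean of at least 1 CPM, the median absolute difference of log2(CPM + 1) was 0.41 between the young livers, 0.69 between the old livers and 0.46 between the age means. A difference between means of 2 livers varies less by chance than one between single livers, so these medians are not on an equal footing. For all 9790 tested mRNAs at that mean, the same medians were 0.34, 0.40 and 0.44. In 14 of the 23 the difference between ages was smaller than that within at least 1 age, which is 60.9% compared with 62.6% of all mRNAs. OL1 had the lowest value of the 4 libraries for 9 of the 23 and YL2 for another 9, compared with 3114 and 2253 of the 9790.

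**Figure D4:**
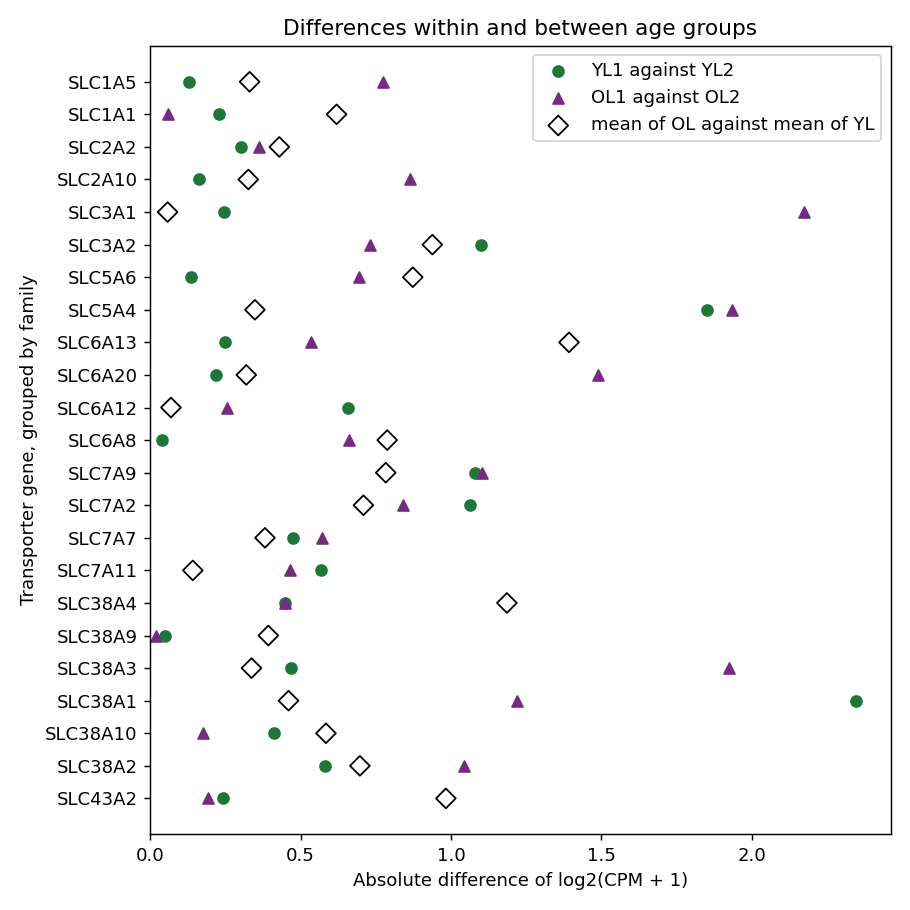
Absolute difference of log2(CPM + 1) between the 2 young livers (circles), between the 2 old livers (triangles) and between the age means (diamonds) for the 23 transporters with a mean of at least 1 CPM. The diamond lies below a circle or a triangle for 14 genes, and SLC38A1, SLC3A1, SLC5A4 and SLC38A3 have the widest spread within an age.

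Carriers outside the 9 families were compared in the same way. Of 22 matched genes for other amino acid, peptide and sugar carriers, 19 were tested, with 2 higher and 1 lower in OL by the unadjusted p, compared with 6.78% and 8.93% of all tested mRNAs. Their median log2 difference was -0.032, and it was above 0 without YL2, at 0.039, and without OL2, at 0.0070. The 2 higher ones were SLC37A1 and SLC45A3, and the lower one was SLC15A1 (PEPT1), a proton-coupled peptide carrier, at 1.70 and 1.85 CPM in YL and 0.764 and 0.585 in OL. SLC37A4, which brings glucose 6-phosphate into the endoplasmic reticulum for the last step of glucose output, had 146 and 121 CPM in YL and 57.4 and 92.4 in OL (log2 difference -0.86, adjusted p = 0.340 in limma). SLC50A1, a sugar carrier, had 14.1 and 15.2 CPM in YL and 8.40 and 3.09 in OL (log2 difference -1.33, adjusted p = 0.347 in limma). Both were below the young livers in both old livers. Of the 19 tested, 6 were below in this way and 4 above, compared with 25% and 24.4% of all tested mRNAs.

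Of 16 matched genes of hepatic glucose entry and its regulators, 1 was higher and none lower by the unadjusted p of limma, compared with 6.78% and 8.93% of all tested mRNAs. The exact test of edgeR put 2 higher and 0 lower by its unadjusted p, compared with 10.3% and 2.7%. The higher one by limma was PFKL, the liver phosphofructokinase, with 1.62 and 0.416 CPM in YL and 4.65 and 4.82 in OL (log2 difference 1.57, adjusted p = 0.251 in limma). The median of the list was 0.41, and it was 0.19 without YL2 and 0.27 without OL2. In both old livers 9 of the 16 were above the young livers and 2 below, compared with 24.4% and 25% of all tested mRNAs. A mean of at least 1 CPM was reached by 15 of the 16, and among tested mRNAs at that mean 1745 of 9790 were above and 3218 below. The 9 include a gene with at most 0.032 CPM in any library and another with 14.9 CPM in OL1 but 1.74 in OL2.

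Of 17 matched partners and sensors of the transporters, 3 were higher and 1 lower by the unadjusted p, compared with 6.78% and 8.93% of all tested mRNAs. Their median log2 difference was -0.22, and it was -0.066 without YL2 and -0.12 without OL2. LAMTOR1, which anchors the amino acid sensing complex with mTORC1 to the lysosome, had 2.78 and 2.96 CPM in YL and 8.45 and 9.31 in OL (log2 difference 1.35, adjusted p = 0.213 in limma, and adjusted p = 0.0379 by the edgeR exact test). No other gene of the 17 was called by that test, which called 2.7% of all tested mRNAs higher and 0.456% lower. SGK1, a kinase known to raise the surface level of several carriers, was another of the higher genes. ARRDC3, an arrestin-domain protein, was the lower one, with 30.4 and 24.5 CPM in YL and 13.8 and 10.2 in OL. RRAGA and RRAGC, GTPases that bind the same lysosomal complex as SLC38A9, were below both young livers in both old livers. Their log2 differences were -0.47 and -0.25. For RRAGA this order depends on the scaling. TMM scaling divides YL1 by 1.097 and OL2 by 0.933, and DESeq2 size factors by 1.097 and 0.939. Either one puts OL2 above YL1 for RRAGA. The related RRAGD overlapped between the ages, at a log2 difference of 0.15. Of the 17, 7 were below both young livers in both old livers and 3 above, compared with 25% and 24.4% of all tested mRNAs.

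Of 13 matched genes of the amino acid response driven by ATF4, 1 was higher and none lower by the unadjusted p of limma, compared with 6.78% and 8.93% of all tested mRNAs. The exact test of edgeR put 2 higher and 0 lower by its unadjusted p, compared with 10.3% and 2.7%. The higher one by limma was the transcription factor ATF5, with 46.2 and 25.1 CPM in YL and 69.9 and 111 in OL (log2 difference 1.35, adjusted p = 0.314 in limma). ATF3 had the log2 difference furthest above 0 of the list, 1.84 (adjusted p = 0.461 in limma, 0.0869 by the edgeR exact test). It had 0.740 and 1.155 CPM in YL and 2.05 and 14.7 in OL. The median of the list was 0.053, and it was -0.14 without YL2 or OL2 and -0.025 without OL1. GPT2, the mitochondrial alanine aminotransferase, had 154 and 90.2 CPM in YL and 16.8 and 57.1 in OL, and ASNS, the asparagine synthetase, had at most 0.393 CPM in any library. PSAT1 and PHGDH of serine synthesis had 6.57 and 1.54 CPM in OL1 and at least 44.6 and 12.3 in each other library, so OL1 was the library that stood apart for them.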

How the data were processed

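Per the labels and methods, the authors used TopHat2 (2.0.14) for alignment to the Ensembl pig build Sscrofa10.2, StringTie (1.2.3) for assembly and Salmon (0.6.0) for values they call TPM. The deposited values behave as CPM: in each library 100% of the non-zero values were whole multiples, within 0.0006 CPM, of 1 step for all genes. Dividing by the step gave whole reads. Intervals and read limits cover counting error only where they rest on reads. Symbols came from a table of Ensembl names.

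Python 3.11.15 (pandas 2.3.3, matplotlib 3.10.9) and R 4.3.3 were used. Differential expression was fitted with limma 3.58.1 on log2(CPM + 1) over the 16898 mRNAs with a value in 2 or more libraries, and p-values were adjusted by Benjamini-Hochberg. This scale understates changes of low values. The exact and quasi-likelihood tests of edgeR 4.0.16 on recovered reads, other scalings (TMM and DESeq2 1.42.0), filters and pseudocounts, a replicate block and leaving out each library were alternatives. The fits were tested on simulated counts. Detection was limited to 3 reads.

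The members and lists were chosen with earlier results of these data known. Named genes were the fixed list of 44, any other member with an unadjusted p-value under 0.05 and any other with a mean of at least 1 CPM and no overlap, and these last 2 rules added 0 genes. Further members are named to account for all 65, after their values were seen. Lists of cholangiocyte, endothelial, stellate, B cell, erythroid, muscle and pancreas markers were also read, with median log2 differences of 0.17, 0.59, 0.020, -0.056, -0.11, 0.0026 and -0.054. A few genes of these lists, 1 transporter among them, entered the fits and counts but are not reported here by name. The lncRNA, circRNA and miRNA tables were not used here. P-values set a difference against the spread between sows of 1 age, which limma moderates over all tested mRNAs. For SLC38A9, with standard deviations of 0.035 in YL and 0.015 in OL, the standard error of 0.11 rests mostly on the other mRNAs.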

Additional observations from a re-analysis of the deposited data

How the results depend on the processing

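No transporter was called under any of the 13 alternatives to the fit. The counts with an unadjusted p-value under 0.05, 2 higher and 3 lower, became 4 and 3 with a pseudocount of 0.1, 4 and 2 with TMM scaling or DESeq2 size factors, 1 and 2 with a mean of at least 1 CPM, and 2 and 1 in the edgeR exact test. The number of higher genes ranged from 1 to 4 with 1 library left out. With the replicate number as a block (replicate block) there were 4 and 4, but the numbers only name unrelated sows, and the same-numbered deviations had a correlation of 0.090 across 16898 mRNAs. In edgeR the median over all mRNAs was 0.12, a shift of 0.14, and the values there are to be read against it. The medians were then 0.47 in both edgeR tests for the transporters, 0.67 for SLC2A, 0.93 for SLC3A, -1.18 for SLC36A, 0.53 for SLC38A, 1.39 for SLC43A and 0.56 for the ATF4 list. With a pseudocount of 0.1 they were 0.49 for SLC2A, 1.03 for SLC5A, -0.69 for SLC36A, 1.17 for SLC43A and 0.18 for the other carriers. The filter on a mean of at least 1 CPM leaves fewer genes and gave -0.14 for the transporters, 0.48 for SLC1A, -0.38 for SLC2A, -0.26 for SLC5A, -0.55 for SLC7A, -0.23 for the other carriers and -0.60 for the ATF4 list. TMM scaling gave 0.039 for SLC1A and 1.15 for SLC43A. With 1 library left out, SLC1A ranged from -0.057 to 0.16, SLC2A from -0.074 to 0.26, SLC3A from 0.080 to 0.80, SLC5A from -0.16 to 0.41, SLC36A from -0.56 to 0.068 and SLC38A from -0.049 to 0.081. The cause of these moves was otherwise not tested.

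Some genes near 0 changed sign. SLC1A2 was at 0.019 with a pseudocount of 0.1, 0.039 with TMM, 0.032 with DESeq2 size factors and 0.018 in both edgeR tests. SLC3A1 was at 0.050 with TMM, 0.038 with DESeq2 size factors and 0.67 in both edgeR tests, SLC38A3 at 0.15 in both edgeR tests, and SLC7A8 at -0.047 with a pseudocount of 0.1. With 1 library left out the ranges were -0.37 to 0.29 for SLC1A2, -0.63 to 0.0076 for SLC1A3, -0.057 to 0.72 for SLC1A5, -0.76 to 0.11 for SLC2A10, -1.14 to 1.03 for SLC3A1, -0.56 to 0.068 for SLC36A4, -0.71 to 1.63 for SLC38A1, -1.30 to 0.62 for SLC38A3, -0.26 to 0.40 for SLC6A12, -0.0040 to 0.092 for SLC7A1, -0.43 to 0.14 for SLC7A11 and -0.22 to 0.32 for SLC7A8. None of these genes had an unadjusted p-value under 0.05 in the full limma fit. Depth limits genes of few reads, for which a difference could not be detected.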
